A study of Mus musculus with 15 samples.

Results

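The genes described here are those whose response to fatty acid differed between mouse peritoneal macrophages with and without lipopolysaccharide (LPS). They were chosen with the contrast (FA+LPS minus LPS) minus (FA minus Unstim), fitted to all 15 arrays with experiment number as a block, and 20 of 12984 genes tested passed an adjusted p below 0.05 (0.154%). The 4 groups were cells loaded with fatty acid and given LPS (FA+LPS, 4 arrays), cells given LPS (LPS, 4 arrays), cells loaded with fatty acid (FA, 4 arrays) and unstimulated cells (Unstim, 3 arrays). All cells had been drawn into the abdominal cavity with thioglycollate, an irritant broth, let adhere to plastic, and cultured at 5.5 mM glucose with 0.5% serum. LPS, a bacterial cell wall component, was given at 10 ng/ml for 24 h, and cells without it received vehicle. The sources used here do not name the fatty acid, the manner of loading, or the strain, age and sex of the mice. The arrays came from 4 experiments described as independent, of which experiments 1, 3 and 4 hold all 4 groups and experiment 2 holds no Unstim array.

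LPS is sensed by Toll-like receptor 4, which switches on NF-kB and interferon regulatory factors and so the inflammatory and antiviral genes of a macrophage. Macrophages that take up fatty acids store them as triglyceride in lipid droplets, burn them in mitochondria and peroxisomes, and lower their own lipid synthesis through the SREBP transcription factors. Amino acid shortage, unfolded protein and other strains converge on the transcription factor ATF4 in what is called the integrated stress response, whose targets include Ddit3 and Trib3.

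An interaction is given as a log2 difference of differences ± SE. It is 0 where the log2 differences of the single treatments add up to that of the combined treatment, so additivity here refers to the log2 scale. Values of single arrays are normalized log2 signals and follow the order of the experiments, 1 to 4 for FA+LPS, LPS and FA and 1, 3 and 4 for Unstim. A gene was sorted as masked where its fatty acid difference was smaller in size with LPS than without it. Otherwise it was sorted as reinforced or opposed, as the fatty acid difference with LPS had the sign of LPS alone or the other sign. The arrays measure mixtures of cells, in which fewer cells of a type and less RNA per cell cannot be told apart.

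Of the 20 non-additive genes, 10 had an interaction above 0 and 10 below 0 (0.077% of the genes tested in each direction). By the sorting, 15 were opposed, 3 reinforced and 2 masked. LPS alone had raised 9 of the opposed genes, among them the stress genes Ddit3 and Trib3, the endothelin gene Edn1 and the pentraxin gene Ptx3, and fatty acid lowered these in cells with LPS. LPS alone had lowered the other 6, among them the sterol synthesis gene Hsd17b7 and the peroxisomal oxidation gene Hsd17b4, and fatty acid raised these in cells with LPS. The reinforced genes were Bst1, Cav1 and Emp1, and the masked genes were Scd1 and Slc6a12. The LPS arrays enter the LPS difference and the fatty acid difference with opposite signs, so an opposed direction is not independent of the sorting. Of the 3479 genes that LPS alone changed, 50.7% would be sorted as opposed, 14.0% as reinforced and 35.4% as masked. The calls depend on single arrays. Only Scd1 and Aqp9 were called in each of 15 fits that left out 1 array, and the number of called genes was 2 without FA replicate 1, FA+LPS replicate 2 or Unstim replicate 4, and 59 without FA+LPS replicate 4. It was 6 without Unstim replicate 1, 8 without LPS replicate 2, 10 without FA replicate 3 or FA+LPS replicate 1, 11 without LPS replicate 1, 12 without FA+LPS replicate 3 and 41 without FA replicate 4. With slide as a block in place of experiment, 1 gene was called (Scd1), with both as blocks 45, with no replicate block 6, and under median scaling in place of quantile normalization 0 (281 at an unadjusted p below 0.05 in limma). The sign of the interaction was the same for all 20 genes in every such fit, and it was also the same in experiments 1, 3 and 4 taken singly (28.0% of all genes tested), which the choice of the genes on these arrays favours and which supports nothing.

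**Figure D1:**
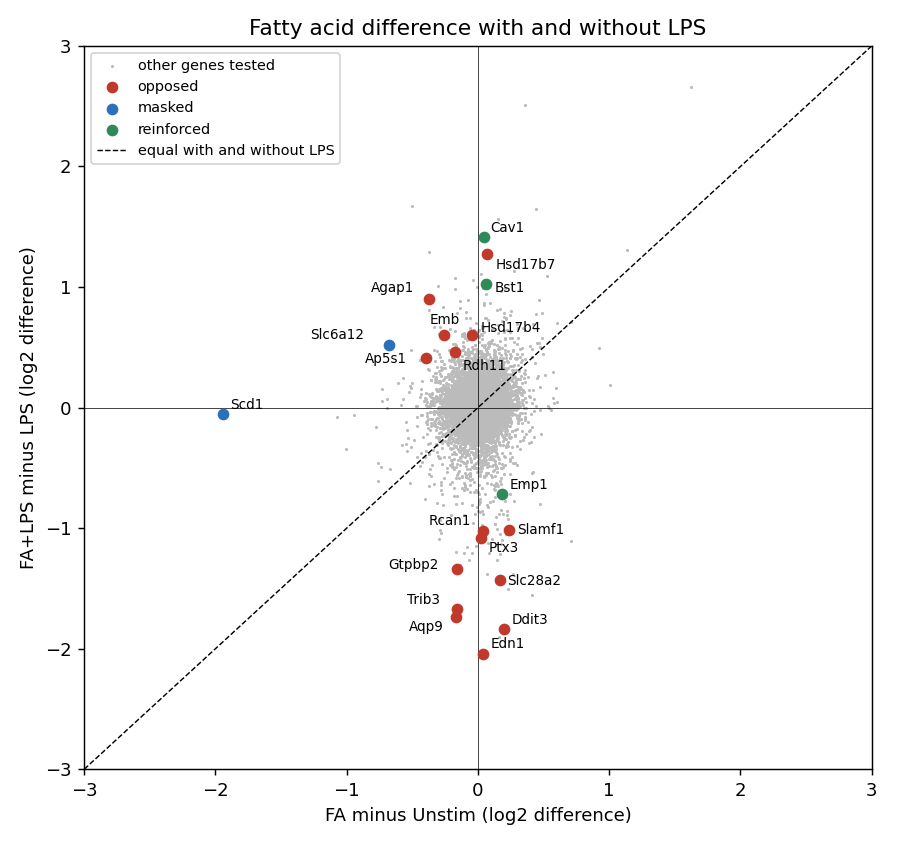
Fatty acid difference in cells with LPS (FA+LPS minus LPS, vertical) against that in cells without LPS (FA minus Unstim, horizontal), both log2, 1 point a gene, with the 20 non-additive genes coloured by class and all other tested genes in grey. Genes on the dashed line respond equally in both conditions, and Scd1 lies at -1.94 on the horizontal axis while the other coloured genes lie between -0.67 (Slc6a12) and 0.23 (Slamf1).

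The single differences behind the interaction were unequal. Of the 20 genes, 18 passed the test for fatty acid with LPS, which 2.65% of all genes did, and 1, Scd1, passed it for fatty acid without LPS, which 0.0231% of all genes did. All 20 passed for LPS alone (26.8% of all genes), 12 for LPS in fatty acid-loaded cells (24.8%) and 15 for the combined treatment against unstimulated cells (22.9%). These contrasts share arrays with the one that chose the genes, so the counts describe the genes and test nothing. The FA+LPS and LPS arrays did not overlap for 16 of the 20 (4.48% of all genes), and the FA and Unstim arrays did not overlap for 4 (4.88%). Fatty acid differences had opposite signs with and without LPS in 13 of the 20, and in 48.2% of all genes.

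The opposed genes that LPS had raised included Ddit3 and Trib3 of the stress response list, the only members of that list called. Ddit3 encodes CHOP, a transcription factor of the integrated stress response. It stood at 8.67, 7.78, 9.40 and 9.94 on the FA+LPS arrays, against 10.96, 10.17, 10.82 and 11.19 on the LPS arrays. On the FA arrays it stood at 9.60, 9.19, 9.24 and 9.49, against 9.50, 9.19 and 9.51 on the Unstim arrays. All FA+LPS arrays lay below all LPS arrays, and the FA and Unstim arrays overlapped. Fatty acid lowered Ddit3 3.58-fold in cells with LPS (log2 -1.84 ± 0.24, adjusted p = 0.00203), and its difference without LPS was 0.20 ± 0.26 (adjusted p = 0.990). The interaction was -2.04 ± 0.35 (adjusted p = 0.0470), with -2.40, -1.47 and -1.22 in experiments 1, 3 and 4. Combined treatment left Ddit3 at -0.23 ± 0.26 from unstimulated cells, where the single differences add up to 1.80.

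Trib3 encodes a pseudokinase that CHOP and ATF4 induce. On the FA+LPS arrays it stood at 7.04, 7.19, 7.17 and 8.28, against 8.82, 9.11, 9.36 and 9.07 on the LPS arrays. The FA arrays gave 7.82, 7.77, 7.85 and 8.18 and the Unstim arrays 8.06, 7.96 and 8.28. FA+LPS replicate 4 lay far above the other FA+LPS arrays, and no FA+LPS array reached the LPS arrays. The fatty acid difference was -1.67 ± 0.17 with LPS (3.18-fold lower, adjusted p = 0.000534) and -0.16 ± 0.19 without it, and the interaction was -1.51 ± 0.26 (adjusted p = 0.0463). Trib3 was called in 2 and Ddit3 in 3 of the 15 fits that left out 1 array.

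Gtpbp2 encodes a GTP-binding protein that acts with ribosomes stalled during translation in mice. Its signals were 9.70, 9.41, 9.80 and 10.28 on the FA+LPS arrays, against 11.17, 10.87, 11.22 and 11.28 on the LPS arrays. Without LPS they were 10.36, 10.21, 10.10 and 10.35 on the FA arrays, against 10.48, 10.43 and 10.57 on the Unstim arrays. Gtpbp2 in cells with both treatments lay below its level in unstimulated cells on every array, while LPS alone had raised it 1.64-fold. Combined treatment lowered it by 0.62 ± 0.12 (adjusted p = 0.00139), where the single differences add up to 0.56. The interaction was -1.18 ± 0.16 (adjusted p = 0.0153), called in 12 of the 15 fits.

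The opposed genes that LPS had raised also included Edn1, Ptx3, Slamf1 and Rcan1. Edn1 encodes endothelin-1, a vasoconstrictor peptide. Its signals were 6.70, 6.20, 6.56 and 7.55 on the FA+LPS arrays, against 8.84, 8.72, 8.36 and 9.25 on the LPS arrays. They lay between 5.90 and 6.05 on the FA arrays, of which 1 of 4 was above background, and between 5.94 and 6.08 on the Unstim arrays, of which 2 of 3 were. LPS alone raised Edn1 7.16-fold, fatty acid lowered it 4.12-fold in cells with LPS (log2 -2.04 ± 0.19, adjusted p = 0.000383), and the interaction was -2.08 ± 0.28 (adjusted p = 0.0153), of which the part without LPS rests mostly on signals at background.

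Ptx3 encodes pentraxin 3, a secreted protein that binds microbes. It measured 6.93, 6.72, 6.56 and 7.06 on the FA+LPS arrays, against 8.14, 7.97, 7.63 and 7.84 on the LPS arrays. No FA and no Unstim array was above background for it, so it rose at least 1.71-fold with LPS in fatty acid-loaded cells (adjusted p = 3.79e-05) and at least 3.65-fold with LPS alone (adjusted p = 6.90e-08). These bounds set the mean of the bright group against the lowest signal above background on the dim arrays. The interaction was -1.10 ± 0.16 (adjusted p = 0.0189) on the measured signals. Its fatty acid difference without LPS has no measured level on either side.

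Slamf1 encodes a receptor of activated leukocytes known as CD150. It stood at 6.51, 6.22, 6.18 and 6.88 on the FA+LPS arrays, against 7.64, 7.36, 7.15 and 7.70 on the LPS arrays, with no overlap. It was above background on 1 of 4 FA arrays and on no Unstim array, and rose at least 2.70-fold with LPS alone (adjusted p = 8.60e-07). Fatty acid lowered it by 1.02 ± 0.13 in cells with LPS (adjusted p = 0.00179). Its interaction was -1.25 ± 0.19 (adjusted p = 0.0226).

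Rcan1 encodes an inhibitor of the phosphatase calcineurin. It measured 8.38, 8.18, 8.46 and 8.76 on the FA+LPS arrays, against 9.48, 9.0, 9.91 and 9.48 on the LPS arrays. The FA arrays spanned 8.11 to 8.40 and the Unstim arrays 8.18 to 8.49. Combined treatment was 0.20 ± 0.12 from unstimulated cells (adjusted p = 0.270), where LPS alone had raised Rcan1 2.34-fold. The interaction was -1.06 ± 0.16 (adjusted p = 0.0189).

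A pair of transporters completed the opposed genes that LPS had raised. Aqp9 encodes an aquaporin that also passes glycerol. It stood at 7.82, 7.52, 7.59 and 8.14 on the FA+LPS arrays, against 9.80, 9.40, 9.46 and 9.37 on the LPS arrays. Without LPS it stood at 6.93, 6.64, 6.69 and 6.70 on the FA arrays, against 6.91, 6.76 and 7.20 on the Unstim arrays. The fatty acid difference was -1.74 ± 0.11 with LPS (3.33-fold lower, adjusted p = 2.59e-05) and -0.17 ± 0.13 without it (adjusted p = 0.990). LPS still raised Aqp9 in fatty acid-loaded cells (log2 1.03, adjusted p = 1.57e-05), less than in unloaded cells (2.60 ± 0.13). That interaction, -1.57 ± 0.17 (adjusted p = 0.00402), was -1.99, -1.80 and -0.73 in experiments 1, 3 and 4.

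Slc28a2 encodes a sodium-coupled transporter of purine nucleosides. It measured 6.38, 6.42, 7.18 and 7.11 on the FA+LPS arrays, against 8.06, 7.66, 8.72 and 8.38 on the LPS arrays. The FA arrays spanned 6.24 to 6.72 and the Unstim arrays 6.29 to 6.41. Fatty acid lowered it 2.70-fold in cells with LPS (log2 -1.43 ± 0.15, adjusted p = 0.000511), its difference without LPS was 0.17 ± 0.16, and the interaction was -1.60 ± 0.22 (adjusted p = 0.0153).

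**Figure D2:**
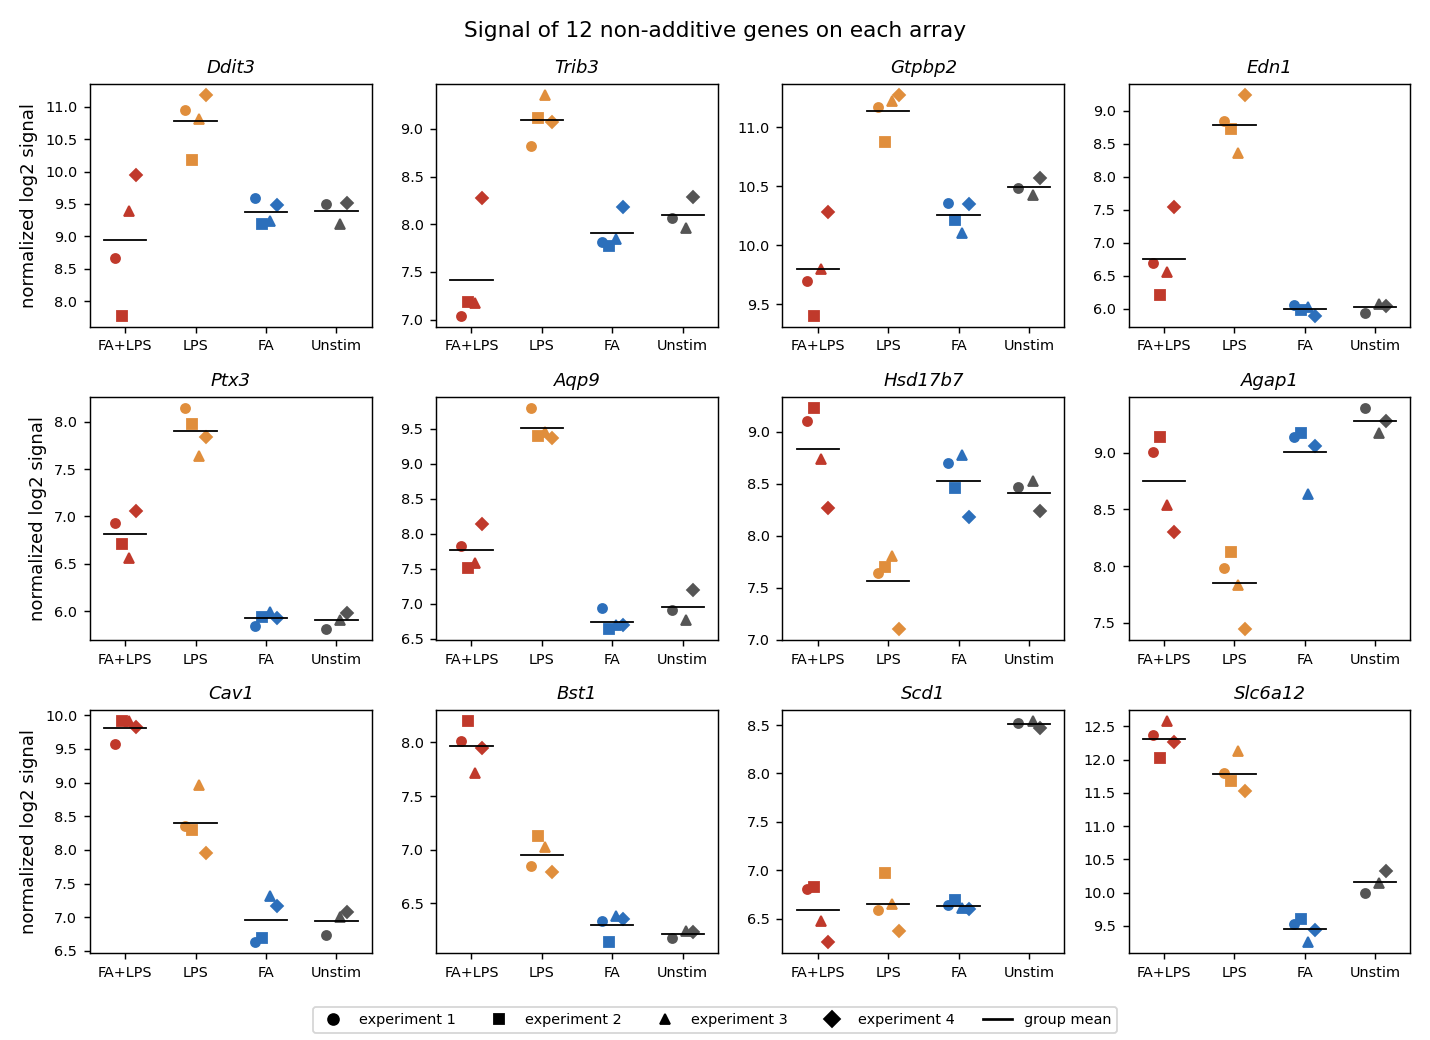
Normalized log2 signal of 12 of the non-additive genes on each of the 15 arrays, with 1 panel a gene, 1 symbol an experiment and a line at the group mean. For Ddit3, Trib3, Gtpbp2, Edn1, Ptx3 and Aqp9 the FA+LPS arrays lie below the LPS arrays, for Hsd17b7, Agap1, Cav1 and Bst1 they lie above, and Scd1 is high on the Unstim arrays only, at 8.47 to 8.54.

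Promoter sequence is shown for 5 opposed genes that fatty acid lowered in cells with LPS, with matches to response elements of stress and interferon factors in capitals. The table of promoters from RefSeq (GRCm38.p6), each 250 bases before to 50 after a start, held 17 of the 20 genes, without Bst1, Hsd17b4 and Scd1. Motifs were searched on both strands and chosen with the results known. The 17 genes had 26 windows, and a gene counted where any of its windows held the motif. The percentages below are of single windows, so the 2 are not like for like. The ATF4-C/EBP composite TGATGNAA was found at Aqp9 and Trib3 (3.97% of 32851 windows hold it). The AP-1 motif TGANTCA was found at Aqp9, Ddit3, Emp1, Rcan1 and Slc6a12 (7.81%), and the cAMP response element TGACGTCA at Rcan1 (1.79%). The interferon-stimulated response element, TTTC and again TTTC after a gap of NN, was found at Edn1 (3.44%), and the NF-kB motif, GGGA, N, TT, N and CC in a row, at Ptx3 and Slc6a12 (1.20%). The sterol response element TCACNCCAC was found at none (1.24%). A match only says that these letters occur in the window. The AP-1 and cAMP response element letters differ and did not overlap in the Rcan1 stretch. Each sequence runs 5′ to 3′ on the strand of the gene and lies upstream of the start used, except that of Trib3, which starts just after it. Aqp9 and Rcan1 have 2 listed starts each, and the start used was taken because its window held a match.
Ddit3, chr10:127290543-127290642, plus strand: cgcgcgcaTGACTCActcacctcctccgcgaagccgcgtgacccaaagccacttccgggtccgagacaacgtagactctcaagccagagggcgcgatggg
Aqp9, chr9:71162634-71162733, minus strand: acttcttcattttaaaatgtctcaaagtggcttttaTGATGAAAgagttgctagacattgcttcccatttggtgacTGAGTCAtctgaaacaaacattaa
Rcan1, chr16:92400179-92400278, minus strand: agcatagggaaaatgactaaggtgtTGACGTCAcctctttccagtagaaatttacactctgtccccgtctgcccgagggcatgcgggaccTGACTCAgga
Edn1, chr13:42301376-42301475, plus strand: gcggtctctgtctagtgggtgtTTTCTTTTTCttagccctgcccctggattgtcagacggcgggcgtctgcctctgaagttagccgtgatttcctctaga
Trib3, chr2:152344027-152344056, minus strand: tagctcaggtTTACATCAgccgggcgggga

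The 6 opposed genes that LPS had lowered included 3 that encode enzymes of sterols, fatty acids or retinoids. Hsd17b7 encodes a ketoreductase of cholesterol synthesis. It stood at 9.10, 9.23, 8.74 and 8.26 on the FA+LPS arrays, against 7.64, 7.70, 7.80 and 7.10 on the LPS arrays. Without LPS it stood at 8.70, 8.46, 8.77 and 8.18 on the FA arrays, against 8.47, 8.52 and 8.23 on the Unstim arrays. All FA+LPS arrays lay above all LPS arrays, and fatty acid raised Hsd17b7 2.42-fold in cells with LPS (log2 1.27 ± 0.12, adjusted p = 0.000383). The interaction was 1.21 ± 0.18 (adjusted p = 0.0189). A second, dimmer probe of the gene gave 0.13 with an unadjusted p of 0.146.

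Hsd17b4 encodes the multifunctional enzyme of peroxisomal fatty acid oxidation. Its signals were 9.79, 9.88, 9.68 and 9.59 on the FA+LPS arrays, against 9.15, 9.20, 9.16 and 9.03 on the LPS arrays. FA and Unstim arrays were close to one another, at 10.54 to 10.60 and at 10.54 to 10.66. Fatty acid raised it by 0.60 ± 0.07 in cells with LPS (adjusted p = 0.000730), and its interaction was 0.64 ± 0.10 (adjusted p = 0.0226). Combined treatment still left it lower than in unstimulated cells (-0.88 ± 0.07, adjusted p = 1.38e-06).

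Rdh11 encodes a reductase of retinal and related aldehydes. It measured 9.52, 9.40, 9.18 and 9.18 on the FA+LPS arrays, against 8.93, 8.86, 8.91 and 8.72 on the LPS arrays. The FA arrays spanned 8.91 to 9.28 and the Unstim arrays 9.10 to 9.42. Its interaction was 0.63 ± 0.11 (adjusted p = 0.0463), and it was called in 3 of the 15 fits that left out 1 array.

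Genes of membrane traffic and transport formed the rest of this group. Agap1 encodes a GTPase-activating protein for Arf proteins of the endosome. It stood at 9.0, 9.14, 8.54 and 8.30 on the FA+LPS arrays, against 7.98, 8.13, 7.83 and 7.45 on the LPS arrays. The FA arrays gave 9.14, 9.17, 8.64 and 9.06 and the Unstim arrays 9.39, 9.18 and 9.28, without overlap. Its interaction was 1.27 ± 0.18 (adjusted p = 0.0160), while its other probe gave 0.11 with an unadjusted p of 0.391.

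Emb encodes embigin, a membrane partner of lactate transporters. It measured 8.97, 8.73, 8.42 and 8.29 on the FA+LPS arrays, against 8.33, 8.24, 7.95 and 7.48 on the LPS arrays, which overlapped. The FA arrays spanned 8.18 to 8.73 and the Unstim arrays 8.51 to 8.91. Within experiments 1, 3 and 4 the interaction was 0.82, 0.69 and 1.15, and the fit gave 0.86 ± 0.12 (adjusted p = 0.0153). It rose by 0.60 ± 0.08 with fatty acid in cells with LPS (adjusted p = 0.00216).

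Ap5s1 encodes a subunit of the endosomal adaptor complex AP-5. Its signals were 7.91, 8.34, 8.40 and 8.54 on the FA+LPS arrays, against 7.44, 7.90, 8.06 and 8.13 on the LPS arrays. Without LPS they were 8.57, 8.83, 8.73 and 9.05 on the FA arrays, against 8.97, 9.08 and 9.49 on the Unstim arrays. Both pairs of groups overlapped across experiments, and the interaction of 0.81 ± 0.12 (adjusted p = 0.0189) was 0.87, 0.69 and 0.85 in experiments 1, 3 and 4. Emb and Ap5s1 belong to the 4 genes whose FA+LPS and LPS arrays overlap, with Scd1 and Slc6a12.

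The 3 reinforced genes moved further with both treatments than the single differences add up to. Cav1 encodes caveolin-1, the scaffold of caveolae, which also takes part in fatty acid uptake. It stood at 9.57, 9.91, 9.91 and 9.83 on the FA+LPS arrays, against 8.35, 8.29, 8.97 and 7.96 on the LPS arrays. Without LPS it stood at 6.63, 6.69, 7.31 and 7.17 on the FA arrays, against 6.74, 7.00 and 7.07 on the Unstim arrays. LPS alone raised it 2.80-fold, and both treatments together raised it 7.45-fold (log2 2.90 ± 0.17, adjusted p = 6.44e-08), against a sum of 1.53. Its interaction was 1.37 ± 0.23 (adjusted p = 0.0463), with 1.33, 0.63 and 1.77 in experiments 1, 3 and 4.

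Bst1 encodes CD157, a surface enzyme that makes cyclic ADP-ribose. It measured 8.01, 8.20, 7.71 and 7.95 on the FA+LPS arrays, against 6.84, 7.13, 7.03 and 6.79 on the LPS arrays. The FA arrays gave 6.34, 6.13, 6.38 and 6.35 and the Unstim arrays 6.17, 6.24 and 6.23, at the dim end of the scale. Fatty acid raised it 2.03-fold in cells with LPS (log2 1.02 ± 0.10, adjusted p = 0.000511), and the interaction was 0.96 ± 0.15 (adjusted p = 0.0346).

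Emp1 encodes a membrane protein with 4 predicted passes that was the only reinforced gene to fall. Its signals were 10.22, 9.80, 10.00 and 10.32 on the FA+LPS arrays, against 11.05, 10.55, 10.83 and 10.79 on the LPS arrays. They were 11.70, 11.32, 11.46 and 11.10 on the FA arrays, against 11.54, 11.18 and 11.11 on the Unstim arrays. LPS alone lowered Emp1 by 0.41 ± 0.12 (adjusted p = 0.0183) and both treatments lowered it by 1.12 ± 0.12 (adjusted p = 9.40e-06). The interaction was -0.90 ± 0.16 (adjusted p = 0.0470), called in 2 of the 15 fits that left out 1 array.

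Scd1, a masked gene, had the smallest adjusted p of the 20. It encodes stearoyl-CoA desaturase, which makes monounsaturated from saturated fatty acids. Its signals were 6.80, 6.82, 6.47 and 6.25 on the FA+LPS arrays, against 6.59, 6.97, 6.65 and 6.37 on the LPS arrays. They were 6.64, 6.69, 6.61 and 6.60 on the FA arrays, against 8.52, 8.54 and 8.47 on the Unstim arrays. Fatty acid alone lowered it by 1.94 ± 0.10 (adjusted p = 1.80e-06) and LPS alone by 1.93 ± 0.10 (adjusted p = 2.17e-08). With both it was lower by 1.99 ± 0.10, and fatty acid in cells with LPS made a difference of -0.06 ± 0.09 (adjusted p = 0.921). The interaction was 1.89 ± 0.14 (adjusted p = 9.04e-05). The sum of the single differences, -3.88, would have placed Scd1 at 4.63, below the lowest signal above background on any array (6.02 to 6.07), so the arrays could not have shown an additive fall. Scd1 was the only gene of the 20 for which this held.

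Slc6a12, which encodes a betaine and GABA transporter, met the rule for masked genes but differs from Scd1. It stood at 12.37, 12.02, 12.58 and 12.27 on the FA+LPS arrays, against 11.80, 11.68, 12.12 and 11.53 on the LPS arrays. Without LPS it stood at 9.53, 9.60, 9.25 and 9.44 on the FA arrays, against 10.00, 10.15 and 10.32 on the Unstim arrays, with no overlap. The fatty acid difference was 0.52 ± 0.14 with LPS (adjusted p = 0.0639) and -0.67 ± 0.15 without it (adjusted p = 0.293), opposite in sign and neither past the threshold. LPS raised it 7.23-fold in fatty acid-loaded cells and 3.15-fold in unloaded cells. The interaction was 1.20 ± 0.20 (adjusted p = 0.0463).

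**Figure D3:**
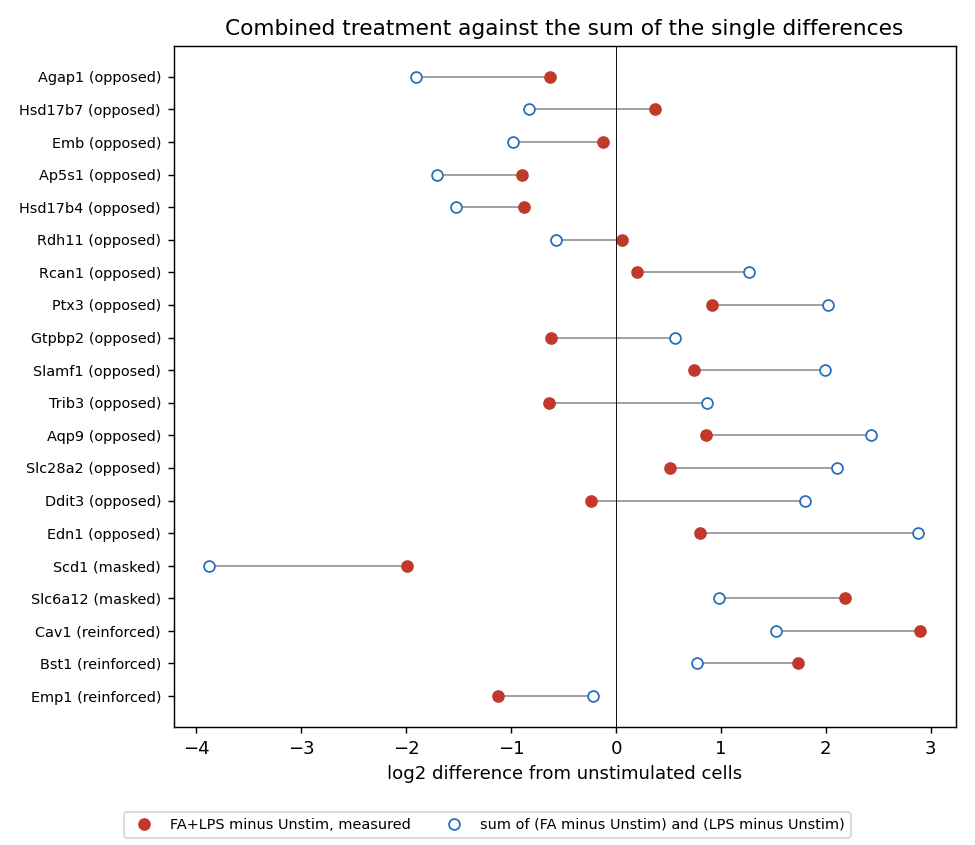
For each of the 20 genes, the measured log2 difference of FA+LPS from unstimulated cells (filled) and the sum of the fatty acid and LPS differences (open), with the class beside the name. The gap between them is the interaction, which is 1.89 for Scd1 and -2.08 for Edn1.

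The interaction could also be read within single experiments. Experiments 1 and 3 each lie on 1 array slide, while experiment 4 spans 3 slides. For all 10 genes with an interaction below 0, the value in experiment 4 was the smallest in size of the 3 experiments. Among all 1668 genes with 3 values below 0 this was so for 37.1%. Of the 10 genes above 0, 7 had their smallest value in experiment 3. Among all 1968 genes with 3 values above 0 this was so for 718. FA+LPS replicate 4, whose omission gave 59 called genes, is an array of experiment 4.

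**Figure D4:**
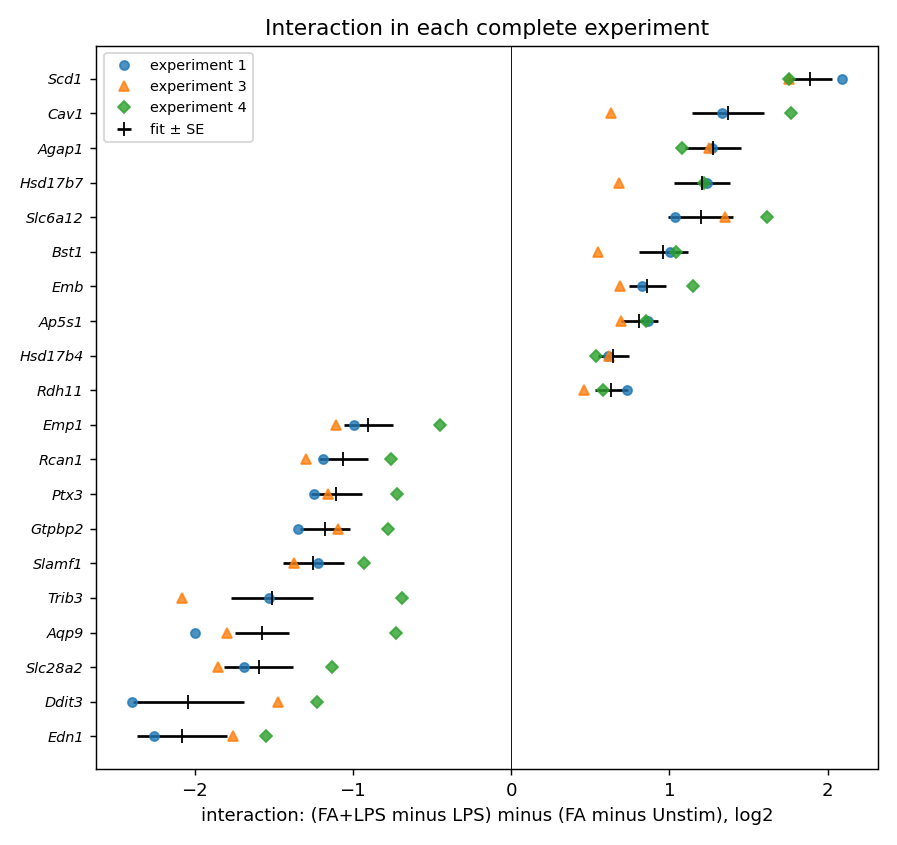
Interaction (log2) of each of the 20 genes in experiments 1, 3 and 4 (coloured symbols) and in the fit to all 15 arrays (cross with a bar of ± 1 SE). The symbols of each gene lie on 1 side of 0, and for the 10 genes below 0 the experiment 4 symbol is nearest to 0.

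Just inside the threshold were Ddit3 and Emp1 at an adjusted p of 0.0470. Just outside were Abca3, a lipid transporter (0.84, adjusted p = 0.0521), the carbonic anhydrase gene Car2 (-1.04, adjusted p = 0.0540) and the chemokine gene Pf4 (1.67, adjusted p = 0.0540). At an unadjusted p below 0.05 there were 1117 genes, 8.60% of those tested.

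The pathways of the called genes were then read from lists, of which the members named here beyond the 20 were chosen after their values were seen. Of 24 measured genes of the integrated stress and unfolded protein responses, 2 were called, Ddit3 and Trib3, both below 0. The median interaction of the list was -0.20 against 0.004 over all genes, and 16 of 24 lay below 0 (6315 of all 12984 genes). That median was -0.06 under median scaling, and -0.39, -0.40 and -0.03 in experiments 1, 3 and 4 alone. Fatty acid lowered 10 of the 24 in cells with LPS (1.06% of all genes fell). They included Asns, which makes asparagine (-1.20 ± 0.17, adjusted p = 0.00381), Chac1, which degrades glutathione (-1.20 ± 0.23, adjusted p = 0.0179), and Ppp1r15a, which restores translation (-0.76 ± 0.10, adjusted p = 0.00238). Their interactions were -1.03 ± 0.26, -1.10 ± 0.34 and -0.78 ± 0.15 (adjusted p = 0.178, 0.300 and 0.0749).

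Of 23 ATF4-responsive genes of amino acid and one-carbon metabolism and tRNA charging, 20 had an interaction below 0, with a median of -0.27. Over all genes, 6315 of 12984 lay below 0. None of the 23 was called by limma (0.154% of all genes were), and 11 had an unadjusted p below 0.05 (8.6% of all genes). Fatty acid lowered 6 of them in cells with LPS (1.06% of all genes fell), among them the alanyl-tRNA synthetase gene Aars (-0.80 ± 0.09, adjusted p = 0.000734) and Mthfd2 of mitochondrial folate metabolism (-0.89 ± 0.09, adjusted p = 0.000547). Slc7a11, a cystine transporter gene of the same list, had an interaction of 0.82 ± 0.18 (adjusted p = 0.107).

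Sterol synthesis genes lay on the other side. All 15 measured members had an interaction above 0, with a median of 0.46, where 6669 of all 12984 genes lay above 0. None was called by limma (0.154% of all genes were), although 10 had an unadjusted p below 0.05 (8.6% of all genes). Fatty acid raised 4 in cells with LPS (1.59% of all genes rose). These were Fdps, which makes farnesyl diphosphate (1.07 ± 0.19, adjusted p = 0.0102), Cyp51 (0.89 ± 0.17, adjusted p = 0.0166) and Msmo1 (0.61 ± 0.11, adjusted p = 0.0104), which demethylate sterols, and Sqle, the squalene epoxidase gene (0.85 ± 0.17, adjusted p = 0.0217). LPS alone had lowered 8 of the 15 and raised none, where it lowered 2025 and raised 1454 of all 12984 genes. Hsd17b7, described above, belongs to the same pathway but was not on this list.

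In the list of fatty acid synthesis, elongation and desaturation, 1 of 14 was called, Scd1, and the median was 0.20. Scd2, a second desaturase gene, had differences of -0.08 ± 0.15 with LPS and -1.08 without it (adjusted p = 0.935 and 0.0618), and an interaction of 1.00 ± 0.22 (adjusted p = 0.103). Among 25 fatty acid oxidation enzymes 1 was called, Hsd17b4, with a median of 0.18. Fatty acid raised 7 of the 25 in cells with LPS (1.59% of all genes rose). Of 15 genes of fatty acid uptake and binding, 1 was called, Cav1, with a median of 0.06.

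Neither PPAR-responsive nor inflammatory lists held a called gene. Of all genes tested 0.154% were called, so lists of such size would mostly hold none. The called genes Ptx3, Edn1 and Slamf1, which LPS raised, were on none of the lists. The 22 PPAR-responsive genes, which fatty acids induce, had a median interaction of 0.11, and 3 had an unadjusted p below 0.05 (8.6% of all genes). Fatty acid raised 6 of them in cells with LPS (1.59% of all genes rose). The lipid droplet coat gene Plin2 rose by 1.65 ± 0.18 with LPS (adjusted p = 0.000680), against a difference of 0.45 ± 0.20 without it (adjusted p = 0.959), and its interaction was 1.20 ± 0.26 (adjusted p = 0.103). Angptl4, an inhibitor of lipoprotein lipase, measured 2.66 ± 0.48 with LPS (adjusted p = 0.0130) and 1.63 ± 0.53 without it (adjusted p = 0.788). The droplet-associated Hilpda measured 1.30 ± 0.23 (adjusted p = 0.0131) and 1.13 ± 0.26 (adjusted p = 0.339). Their interactions were 1.03 ± 0.71 (adjusted p = 0.775) and 0.17 ± 0.35 (adjusted p = 0.964). In experiments 1, 3 and 4 the Angptl4 interaction was 0.97, 0.09 and 0.29, each below the fitted value. That of the fatty acid receptor gene Cd36 was -0.05 ± 0.14 (adjusted p = 0.977). The probes of Pdk4 and Cpt1a were near background, with Cpt1a above it on 0 of 4 FA+LPS and 1 of 4 LPS arrays and Pdk4 on 3 and 1, so their interactions (0.07 and -0.05) say little.

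The 38 measured NF-kB-responsive genes had a median interaction of -0.05, which was 0.09 under median scaling. Of these genes, 11 had an unadjusted p below 0.05 (8.6% of all genes). Il1b was above background on 1 of 4 FA and 1 of 3 Unstim arrays and stood at the top of the scale with LPS (13.81 to 14.17 on FA+LPS arrays, 13.81 to 14.01 on LPS arrays), so its interaction of 0.18 ± 0.14 (adjusted p = 0.821) has little room to be seen. That of Tnf was -0.81 ± 0.24 (adjusted p = 0.262), of Il6 -0.62 ± 0.21 (adjusted p = 0.339), of Nos2 -0.49 ± 0.27 (adjusted p = 0.691) and of Ptgs2 -0.17 ± 0.19 (adjusted p = 0.909). Without LPS, Il6 was above background on 1 FA and 1 Unstim array, Nos2 on 0 and 1, and Ptgs2 on 2 and 1. Acod1, whose enzyme makes itaconate, was lowered by fatty acid without LPS (-0.94 ± 0.13, adjusted p = 0.0448) and measured -0.06 ± 0.12 with it, an interaction of 0.88 ± 0.18 (adjusted p = 0.0749). The stress factors Atf3 (-0.69 ± 0.25) and Atf4 (-0.28 ± 0.22) had adjusted p-values of 0.407 and 0.830.

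Of 44 measured interferon-responsive genes, 36 had an interaction below 0 and the median was -0.48. Over all genes, 6315 of 12984 lay below 0. None of the 44 was called by limma (0.154% of all genes were), and 17 had an unadjusted p below 0.05 (8.6% of all genes). Fatty acid lowered 10 of them in cells with LPS (1.06% of all genes fell). They included Gbp5, a guanylate-binding protein (-1.09 ± 0.15, adjusted p = 0.00250, interaction -1.20 ± 0.22, adjusted p = 0.0640), and Ifit2, which restrains viral translation (-1.90 ± 0.37, adjusted p = 0.0196, interaction -2.07 ± 0.56, adjusted p = 0.207).

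**Figure D5:**
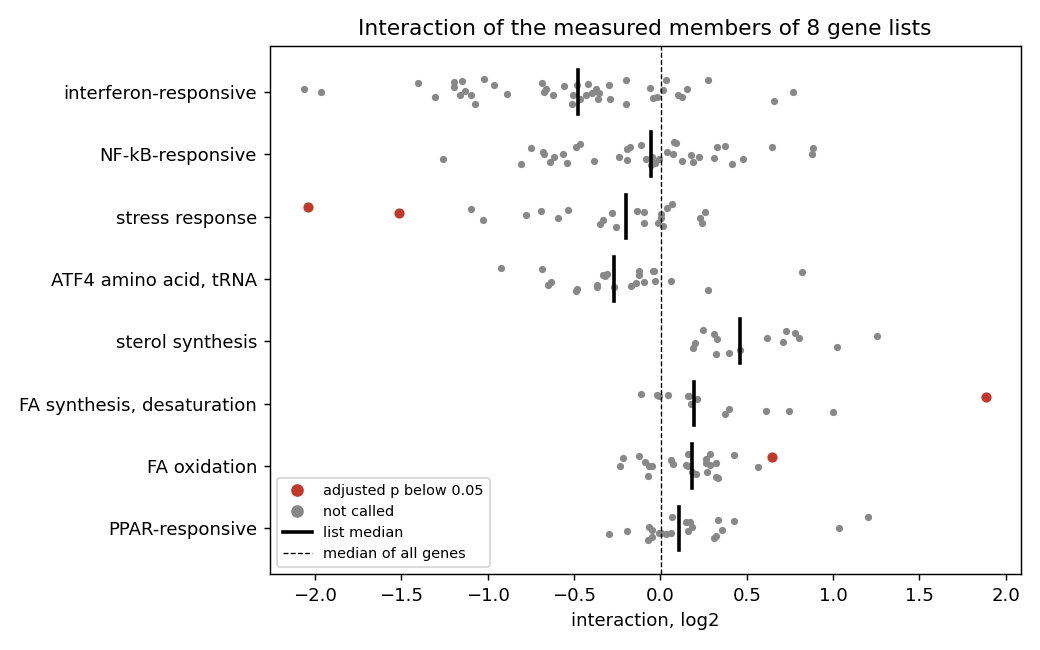
Interaction (log2) of each measured member of 8 gene lists, with called genes in red, others in grey, a bar at the list median and a dashed line at the median of all genes (0.004). All 15 sterol synthesis members lie above 0, and 36 of 44 interferon-responsive members lie below it. Of all 12984 genes, 6669 lie above 0 and 6315 below it.

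Signals bearing on the arrays and the cells are given together. FA replicate 1 was dimmer than the rest, with 16756 probes above background against 18945 to 19973 elsewhere. Of 10 measured macrophage markers, 9 were above background on all arrays. The summed linear signal of 8 measured neutrophil markers was 1549 to 2443 on FA+LPS arrays, 1104 to 1499 on LPS arrays, 813 to 886 on FA arrays and 782 to 891 on Unstim arrays. Of these markers, 2 were above background on every array, and 1, S100a8, which macrophages can also make, rose with fatty acid in cells with LPS (1.11 ± 0.17, adjusted p = 0.00565), while the median of the 8 was -0.02. The summed signal of 2 measured T and NK cell markers was 563 to 990 on FA+LPS arrays, 701 to 1020 on LPS arrays, 1066 to 2509 on FA arrays and 1436 to 2172 on Unstim arrays. The summed signal of 10 measured mesothelial and fibroblast markers was 923 to 1329 on FA+LPS arrays and 993 to 1233 on LPS arrays. It was 676 to 718 on FA arrays and 689 to 726 on Unstim arrays. That of 8 measured dendritic cell markers was 776 to 1157, 791 to 1429, 565 to 584 and 541 to 582 in the same order. In each of these lists 1 marker was above background on every array. No marker of another cell type was called for the interaction (0.154% of all genes were), and the part of such cells in the non-additive genes was not tested.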

How the data were processed

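Biotin-labelled cRNA of each sample was hybridised to Illumina mouse bead arrays. The authors deposited log2 signals of 45281 probes that were not normalized between arrays, and a value table of log2 values for 25784 of them, which equals a quantile normalization of the former to within 0.000949 and has a median of 6.03 in every column. Software, background handling by the authors and their criterion for retaining probes are not stated in the labels or file headers, and the log2 scale was inferred from the values.

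Signals were back-transformed, corrected with normexp (offset 50) and quantile normalized over all probes. With no detection p-values in the files, a probe counted as above background on an array where it exceeded the 95th percentile of the 19497 probes not retained. Retained probes above background on at least 3 arrays were tested (24195). Platform annotation named 21476 retained probes with 1 gene symbol, 10 with several and 4298 with none, and the brightest probe stood for a gene, leaving 12984 genes. Of the other probes of the called genes, 10 of 10 had the same sign, and each had a smaller interaction than the brighter probe used. Values were -0.57 against -1.18 for Gtpbp2, -0.49 against -1.25 for Slamf1 and 0.32 against 0.63 for Rdh11. Trib3 had -0.85 and -0.76 against -1.51, while Rcan1 was close, at -0.98 against -1.06.

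Models were fitted with limma 3.58.1 (R 4.3.3; lmFit, eBayes) to 15 arrays with group and experiment as terms (8 residual degrees of freedom, 4.47 prior). All tests were 2-sided with Benjamini-Hochberg adjustment over all genes, and called below 0.05. The experiment numbers come from the labels. Deviations from group means correlated at a median of 0.22 within an experiment (0.0438 to 0.805, 21 pairs). Between experiments the median was -0.07 (-0.519 to 0.182, 63 pairs), and the ranges overlapped. Experiments 1 and 3 each lie on 1 slide, so within them pairing by experiment cannot be told from a shared slide. Experiment 4 spans 3 slides, and its pairs on different slides correlated at 0.0552 to 0.385. Pairs that share a slide with an array of experiment 4 but not its experiment correlated at -0.359 to 0.182. The part of slide and of experiment in these values was not tested. On data simulated for the interaction over 12984 genes, 56.7% of genes changed 1.5-fold, 89.6% changed 2-fold and 100% changed 4-fold were recovered, with 2.38% false calls. These shares hold for the simulated spread and do not give the recovery or the false calls of the real data. There, Pf4 with an interaction of 1.67 was not called by limma (adjusted p = 0.0540), and leaving out 1 array gave 2 to 59 called genes.

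The members, the 33 gene lists and the tests were chosen with earlier results of these data known. All called genes with 1 sign in the 3 complete experiments, called members of the lists and a fixed set of genes of inflammation and lipid metabolism are named. Of that set, Il10 and Il12b were not among the genes tested. Alternatives covered the block, slides, normalization, background correction, filters, probe choice, variance model and leaving out each array. The number of arrays limits the precision.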

Additional observations from a re-analysis of the deposited data

Results flagged for a closer look

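The 20 genes are listed here because the fatty acid difference with LPS and that without it differed by the test of the interaction itself (log2). Above 0 stood Scd1 (1.89), Cav1 (1.37), Agap1 (1.27), Hsd17b7 (1.21), Slc6a12 (1.20), Bst1 (0.96), Emb (0.86), Ap5s1 (0.81), Hsd17b4 (0.64) and Rdh11 (0.63). Below 0 stood Edn1 (-2.08), Ddit3 (-2.04), Slc28a2 (-1.60), Aqp9 (-1.57), Trib3 (-1.51), Slamf1 (-1.25), Gtpbp2 (-1.18), Ptx3 (-1.10), Rcan1 (-1.06) and Emp1 (-0.90).

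Single arrays stood apart from the other 3 of their group, by Dixon's test at 95%, in 6 of 102 groups of 4 arrays over 34 named genes (5.88%, where chance gives about 1 in 20). For non-additive genes these were Trib3 on FA+LPS replicate 4 (8.28, the highest of its group) and Bst1 on FA replicate 2 (6.13, the lowest). For other genes they were Il6 on FA replicate 1 (6.44, the highest), Ptgs2 on LPS replicate 1 (7.36, the highest) and on FA replicate 3 (6.20, the highest), and Pdk4 on LPS replicate 4 (5.75, the lowest).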

How the results depend on the processing

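Across 31 alternatives the interaction kept its sign for every one of the 20 genes in each fit that tested it. The number of called genes did not hold. It was 6 with no replicate block (4 higher, 2 lower; 3 opposed, 1 reinforced, 2 masked), 10 with the block as a random effect (5 and 5; 6 opposed), 1 with slide as a block in place of experiment (Scd1, masked; 0 lower, 0 opposed, 0 reinforced) and 45 with slide and experiment as blocks (20 and 25; 32 opposed, 5 reinforced, 7 masked and 1 with no direction of LPS alone). Of the 20 genes, 16 were among those 45. Experiments 1, 3 and 4 alone gave 1 called gene (Scd1; 0 lower, 0 opposed, 0 reinforced). Median scaling gave 0 by limma (281 at an unadjusted p below 0.05; each class 0), and still 0 without FA replicate 1 (389), an alternative chosen after seeing the data, as was cyclic loess with 8 (5 higher and 3 lower, against 10 and 10; 7 opposed, 0 reinforced, 1 masked). Median scaling moved the median interaction of all genes to 0.07. Adjusted p-values over the alternatives reached 0.323 for Scd1 and 0.466 for Aqp9. An offset of 16 gave 38 (21 and 17; 23 opposed, 9 reinforced, 3 without LPS direction), eBayes with trend and robust 35 (18 and 17; 9 reinforced, 5 without LPS direction), and array weights 49 (29 and 20; 28 opposed, 9 reinforced, 6 masked, 6 without LPS direction). The authors' processed values and no background correction each gave 28 (6 reinforced, 1 without LPS direction), the filter on all 15 arrays 27 (5 reinforced, 2 without LPS direction), no filter 20 and the mean of probes 18. Leaving out 1 array at a time gave 2 to 59 called genes (1 to 32 higher, 1 to 27 lower, 1 to 41 opposed, 0 to 12 reinforced, 1 to 5 masked, 0 to 4 without LPS direction).

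List medians kept their sign except that of NF-kB-responsive genes, 0.0925 under median scaling (-0.150 with cyclic loess, -0.177 in experiment 1). Interferon-responsive genes had -0.385 with no replicate block, -0.360 with slide, -0.267 in experiments 1, 3 and 4 together, -0.364, -0.315 and -0.190 in each alone, and -0.579 with cyclic loess. Median scaling gave -0.142 for ATF4-responsive amino acid genes (-0.121 in experiment 4), 0.636 for sterol synthesis, 0.424 for desaturation, 0.402 for oxidation and 0.237 for PPAR-responsive genes. Offset 16 gave 0.664, 0.334 and 0.273 for sterol synthesis, desaturation and oxidation, and the filter on all arrays 0.620, 0.306 and 0.266. Sterol synthesis had 0.325 with the mean of probes, desaturation 0.0925 in experiment 3, and oxidation 0.0728 in experiment 3, 0.115 in experiment 4 and 0.0870 with median scaling without FA replicate 1. Leaving out 1 array gave -0.314 to -0.190 for amino acid genes, -0.285 to -0.127 for stress genes (-0.0565 under median scaling, -0.147 with the mean of probes, -0.385, -0.395 and -0.0303 in experiments 1, 3 and 4), -0.580 to -0.267 for interferon, -0.120 to -0.0112 for NF-kB, 0.0238 to 0.166 for PPAR, 0.113 to 0.229 for oxidation, 0.163 to 0.271 for desaturation and 0.386 to 0.649 for sterol synthesis. The cause of these shifts was not tested. Signal over background limits Ptx3, Slamf1, Edn1, Il1b, Il6, Nos2 and Ptgs2 without LPS, and Cpt1a and Pdk4 throughout. Scd1 was above background on every array, but its additive level would not have been.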

Other observations

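Of the lists not yet described, 17 with 310 measured members held no gene called for the interaction by limma. Of those entries, 70 had an unadjusted p below 0.05 (8.6% of all genes). The median interactions of these lists lay between -0.15, for cytosolic heat shock genes, and 0.20, for genes of prostaglandin and leukotriene synthesis. The 7 lists of cell type markers held no called gene among 44 measured members, 5 of which had an unadjusted p below 0.05, and their medians lay between -0.12 and 0.14. Fatty acid passed the test in cells with LPS for some members of these lists, such as Tlr7, Arg1 and Tbxas1, named here after their values were seen.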
